A study of Homo sapiens with 2 samples.

Results

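AFP-positive cells of the blood-generating heart-forming organoid (BG-HFO) were examined, a small population that carries the marker genes of posterior foregut endoderm. They were selected on their own transcripts: among barcodes with 500 to 9000 genes and under 15% of counts from mitochondrial genes, a cell was taken when it held at least 10 unique molecular identifiers (UMIs, 1 per captured transcript) of *AFP*, at most 1 of the endothelial gene *CDH5*, at most 1 of the leukocyte gene *PTPRC* and at most 3 of the atrial myosin gene *MYH6*. This rule chose 222 of 34749 cells. Levels of these 4 genes are therefore a description of the selection and not a finding, and the same cells supply every other level given here.

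The data came from 2 organoids on day 14 of differentiation, named 32.7 and 33.10, each dissociated on its own and sequenced as 1 droplet library. Both were grown from 1 human embryonic stem cell line, hES3 with an eGFP reporter in *NKX2.5*, as aggregates embedded in Matrigel. Both received the WNT activator CHIR99021 and then the WNT inhibitor IWP2, with BMP4, bFGF, VEGF and further haemato-endothelial factors added in stages, so there was 1 condition and no untreated group. The labels list cardiomyocytes, endothelial, mesenchymal and haematopoietic cells as the contents of the organoids and do not list endoderm.

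Posterior foregut endoderm is the sheet of gut epithelium that gives rise to the liver, the bile ducts and part of the pancreas. The factors HNF4A, FOXA2, HHEX and PROX1 act in its turn towards liver, and the resulting hepatoblasts secrete alpha-fetoprotein (AFP), apolipoproteins and other plasma proteins. The endoderm of the yolk sac makes many of the same proteins, so that AFP and its secreted companions do not by themselves tell the 2 tissues apart. In the embryo the liver bud grows out next to the heart and the septum transversum.

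Organoid 32.7 held 201 of these cells among 15632 (1.29%, 95% exact binomial interval 1.12 to 1.47%) and organoid 33.10 held 21 among 19117 (0.110%, 0.0680 to 0.168%). The intervals cover counting error only, and with 1 library per organoid the difference was not tested. *AFP* UMIs ran from 10 to 1038 per cell with a median of 31 in organoid 32.7, and from 16 to 1063 with a median of 90 in organoid 33.10. The median depth of the AFP-positive cells was 5581 UMIs in organoid 32.7 and 14726 in organoid 33.10, against 8496.5 and 8407 UMIs over all cells kept. Before the gates on *CDH5*, *PTPRC* and *MYH6*, 299 and 23 cells reached 10 *AFP* UMIs, and of the 98 left out in organoid 32.7 the *MYH6* gate left out 72. Just inside the threshold 15 AFP-positive cells had 10 or 11 *AFP* UMIs, all in organoid 32.7, and just outside it 18 cells there had 8 or 9. At least 1 *AFP* UMI was found in 999 cells of organoid 32.7 (6.39%) and in 82 of organoid 33.10 (0.429%). The libraries shared 100 barcode sequences, of which 1 was an AFP-positive cell in organoid 32.7 and none was in organoid 33.10.

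Many AFP-positive barcodes of organoid 32.7 had counts close to those of another barcode. Their counts were compared in pairs by a chi-square test over genes with at least 10 UMIs in the pair, and a pair was said to agree within sampling noise where the p exceeded 0.05. Of 16935 pairs that could be tested 528 agreed (3.12%), and 116 of the 201 barcodes had at least 1 match. Among barcodes of 4000 to 12000 UMIs 85.1% had a match, whereas at the same depth 4.98% of proepicardial and septum transversum cells, 17.0% of mesenchymal cells and 5.76% of endothelial cells of that organoid had one. The matches were joined in chains, so that a barcode entered a group by agreeing with at least 1 member of it. This gave 1 group of 65 barcodes, 1 group of 43 and 4 pairs, which left 91 profiles. Most pairs within the 2 large groups did not agree: 370 of 1961 pairs tested in the larger (18.9%) and 154 of 688 in the smaller (22.4%) did. The number of profiles is therefore a low count, and setting each group to 1 barcode may also set aside barcodes that differ. Without the gates on *CDH5*, *PTPRC* and *MYH6*, the 2 largest groups among 299 barcodes of organoid 32.7 held 80 and 73, so matches also reached barcodes that the gates left out. Among barcodes over 12000 UMIs, where the test is stricter, 22 of 46 AFP-positive barcodes in organoid 32.7 and 5 of 15 in organoid 33.10 had a neighbour with a chi-square per gene under 1.5, against 1.95% to 7.76% of barcodes in the 3 other classes. With both criteria, joined in the same way, 82 profiles remained in organoid 32.7 and 17 in organoid 33.10, or 0.525% (0.417 to 0.651%) and 0.0889% (0.0518 to 0.142%) of the cells. What made these barcodes alike was not tested. Results below are given with all barcodes, and the calls of the gene lists that changed with each linked group counted once (matching barcodes counted once) are stated beside them.

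The groups of 65 and 43 barcodes carried transcripts of several cell types. Their *AFP* level was 8460 CPM (the gene's UMIs scaled to a sum of 1000000) in the larger group and 3612 CPM in the smaller. Collagen gene *COL3A1* stood at 866 and 932 CPM, the platelet factor gene *PF4* at 876 and 2450 CPM, and the titin gene *TTN* at 181 and 793 CPM. Summed over the 108 barcodes of both groups, 4 endothelial markers reached 467 CPM against 105 CPM in the other 93 AFP-positive barcodes of the organoid, and 4 mesenchymal markers reached 1659 against 556 CPM. *TTR* stood at 572 CPM in the groups and 3498 CPM outside them, *HNF4A* at 65.1 and 110.01 CPM, and *FOXA2* at 6.51 and 36.4 CPM. The plot of depth against *AFP* count shows where these barcodes lie.

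**Figure D1:**
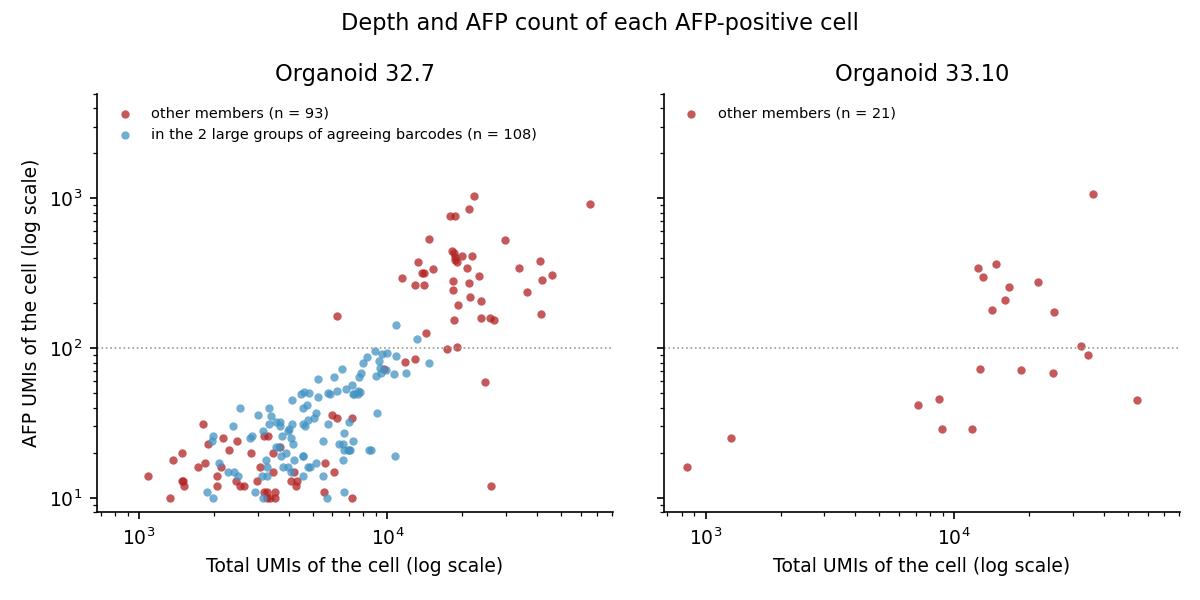
Total UMIs (x axis, log scale) and *AFP* UMIs (y axis, log scale) of each AFP-positive cell in organoids 32.7 (left) and 33.10 (right), with a dotted line at 100 *AFP* UMIs. The 108 barcodes of the 2 large groups, which are linked by chains of matches (blue), lie between 10 and 142 *AFP* UMIs, mostly below the line, and most barcodes above it belong to neither group.

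The label was checked against the marker genes. *TTR*, which encodes the thyroxine carrier transthyretin, had at least 1 UMI in 87.1% of AFP-positive cells of organoid 32.7 and in all 21 of organoid 33.10. In the leukocyte gate, a class that should lack the gene and had a median depth of 18944 and 18453 UMIs, 1.51% and 0.690% of cells had a *TTR* UMI. *HNF4A*, the nuclear receptor at the head of the hepatocyte programme, was found in 39.8% and 81.0% of AFP-positive cells, against 0.631% and 0.920% of the leukocyte gate. *FOXA2*, the pioneer factor of definitive endoderm, was found in 12.4% and 33.3%, and in no cell of the leukocyte gate. After every cell had been thinned to 3000 UMIs, which left out 35 and 2 shallower AFP-positive cells, the shares for *HNF4A* were 22.3% and 36.8%. The markers of the label were thus present in both organoids, though not in every cell. *POU5F1* and *SOX2*, genes of the pluripotent state, had no UMI in any AFP-positive cell, and *NANOG* had 1.

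In organoid 32.7 the markers were higher where a cell held more *AFP*. The 60 cells with 10 to 19 *AFP* UMIs had no UMI of *FOXA1*, *FOXA2* or *FOXA3*, and their *HNF4A* level was 58.7 CPM. The 97 cells with 20 to 99 *AFP* UMIs stood at 66.7 CPM of *HNF4A* and 10.0 CPM of *FOXA2*. The 44 cells with at least 100 *AFP* UMIs stood at 121 CPM of *HNF4A* and 42.6 CPM of *FOXA2*, and supplied 54.0% of all UMIs of the organoid's AFP-positive cells. Median depth rose along the same order (3284, 5772 and 19026 UMIs) and the median mitochondrial share fell (6.53%, 3.50% and 1.35%), so that these gradients are not separate from depth. Just outside the threshold (3 to 9 *AFP* UMIs, other gates passed), *SERPINA1*, *TNNT2* and *COL3A1* stood at 1161, 837 and 929 CPM. Just inside it (10 to 15 UMIs) they stood at 1074, 839 and 858 CPM. *TTR* was 358 and 401 CPM, whereas *APOA1* (511 and 1214 CPM) and *HNF4A* (12.7 and 63.6 CPM) were higher inside. In organoid 33.10, 10 cells had 20 to 99 *AFP* UMIs and 10 had at least 100, with *HNF4A* at 98.4 and 148 CPM, while *FOXA2* went the other way, at 71.05 CPM (13 UMIs) and 14.8 CPM (3 UMIs).

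The summed markers of other cell types were lowest in the cells rich in *AFP* in organoid 32.7. The gates on *CDH5* and *MYH6* are limits on raw UMIs, so in CPM they are tighter for deeper cells, and the cells rich in *AFP* were the deepest. The part of the gates and of depth in these levels was not tested. The summed level of 5 cardiomyocyte markers (*TNNT2*, *NKX2-5*, *ACTC1*, *MYL7* and *TTN*) was 3130, 1506 and 221 CPM in cells with 10 to 19, 20 to 99 and at least 100 *AFP* UMIs, against 2956 CPM in all other cells of the organoid. For 4 mesenchymal markers (*COL1A1*, *COL3A1*, *PDGFRA* and *DCN*) it was 1349, 1600 and 417 CPM against 1147 CPM, and for 4 endothelial markers (*KDR*, *TEK*, *TIE1* and *EMCN*) 385, 430 and 64.9 CPM against 525 CPM. For these 3 lists, the sums over cells with 10 to 19 *AFP* UMIs thus lay near those of the rest of the organoid. The cells rich in *AFP* held less, as did cells with 20 to 99 for the cardiomyocyte markers. By cell, the median with 10 to 19 *AFP* UMIs was above that of all other cells. It was 3299 against 247 CPM for cardiomyocyte, 951 against 279 CPM for mesenchymal and 426 against 163 CPM for endothelial markers. The 8 blood markers stood at 2836, 1988 and 1718 CPM in the same order, against 11187 CPM in all other cells of organoid 32.7, and the proepicardial and septum transversum markers at 71.2, 53.4 and 38.6 CPM against 71.04 CPM. The median cell held 1550, 1497 and 120 CPM of the blood markers in that order, against 321 CPM in all other cells. In organoid 33.10 the cardiomyocyte markers stood at 148 CPM in the cells with 20 to 99 *AFP* UMIs and at 1495 CPM in those with at least 100, the endothelial markers at 60.1 and 74.03 CPM, and the mesenchymal markers at 798 and 479 CPM. The blood markers of organoid 33.10 stood at 5646 and 5705 CPM in the same cells, against 18588 CPM in all other cells, and were led by *PF4* at 4221 CPM over all its AFP-positive cells, and 5 of the 21 barcodes supplied nearly all of its 1631 UMIs. The part of droplets with more than 1 cell, or of free RNA, in these levels was not tested.

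**Figure D2:**
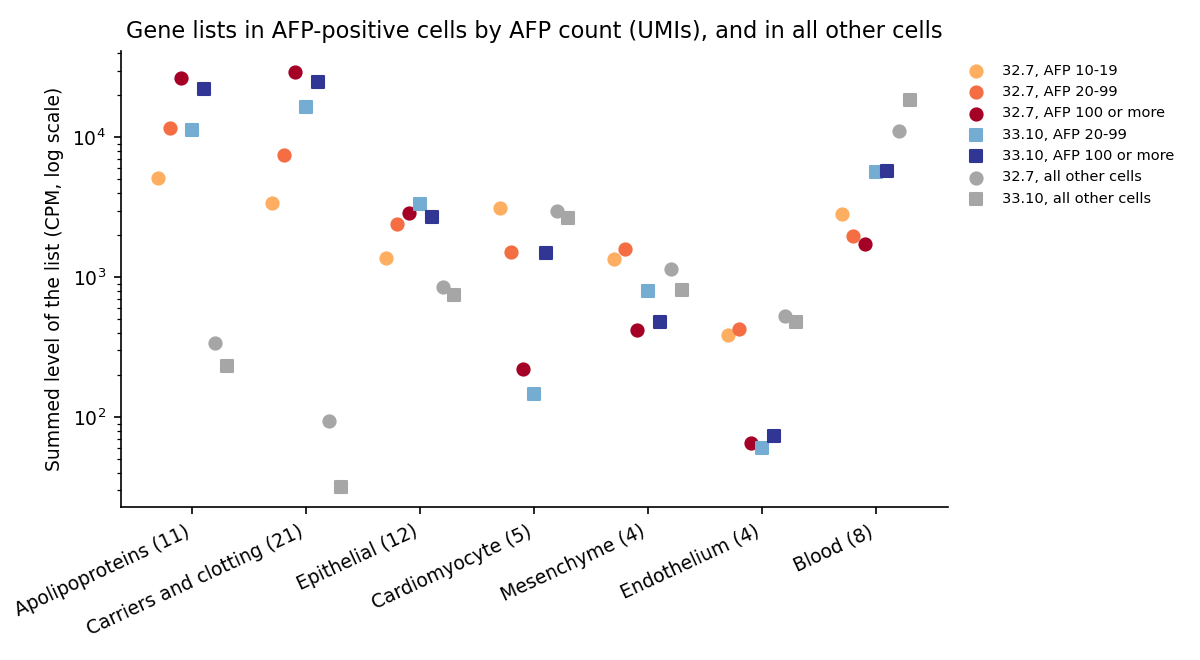
Summed level of each gene list (y axis, CPM, log scale) in AFP-positive cells grouped by *AFP* count, and in all other cells of each organoid (grey), with the number of genes in brackets. Circles are organoid 32.7 and squares organoid 33.10. The single cell of organoid 33.10 with under 20 *AFP* UMIs is not drawn. Apolipoproteins and carriers rise with *AFP* count and stand far above the grey points, while the cardiomyocyte, mesenchymal and endothelial lists of organoid 32.7 do not.

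To ask which genes set these cells apart from their neighbours, UMIs were summed per class and organoid, and AFP-positive cells were compared with proepicardial and septum transversum cells (PE/ST, selected on *WT1* and *TBX18*, 1780 cells), mesenchymal cells (MES, selected on *PRRX1* and *LUM*, 2338 cells) and endothelial cells (EC, selected on *CDH5* and *PECAM1*, 2494 cells). Cardiomyocytes (2374 cells) entered the same fit. The test was the quasi-likelihood F test of edgeR, adjusted by Benjamini and Hochberg's method over 20946 genes, with the 2 organoids as replicates. A p-value measures only the spread between these 2 organoids, estimated over all 5 classes together, and the members were chosen on the same cells. Across genes, log2 CPM of the AFP-positive sums correlated at r = 0.843 between organoids. For the PE/ST, MES, cardiomyocyte and EC sums r was 0.985, 0.979, 0.986 and 0.990. Within organoid 32.7 the AFP-positive and MES sums correlated at 0.874. The part of the smaller AFP-positive sums in this was not tested. Of all genes tested 8.78% were higher and 7.49% lower in AFP-positive cells than in PE/ST cells at an adjusted p under 0.05. Against MES 7.61% were higher and 6.35% lower, and against EC 17.2% were higher and 18.6% lower. The median log2 fold change of all genes was -0.08, -0.10 and -0.07. Differences below are log2 fold changes ± SE from this fit, and levels are CPM in organoid 32.7 and then 33.10. The gene lists were drawn up from general knowledge of the tissue, but with earlier results of these data known. List members nearly absent from the other classes passed the filter on low counts through the AFP-positive sums, where they were high. Counts of tested members that were higher are therefore a description of the lists.

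Among 19 tested transcription factors of endoderm and liver, 16 were higher and 1 lower than in PE/ST, 15 were higher and none lower than in MES, and 15 were higher and 2 lower than in EC. The median log2 fold change of the list was 4.72, 5.10 and 4.18. This median and those of the lists below were the same when genes against a class without a UMI were set to their bound. *HNF4A* stood at 94.9 CPM (95% Poisson interval 81.2 to 110.1) and 124 CPM (91.6 to 165), and at under 0.5 CPM in each of the 3 classes. Its log2 fold change was 8.22 ± 0.50 over PE/ST (edgeR adjusted p = 8.49e-06), 8.77 ± 0.53 over MES and 9.05 ± 0.52 over EC. *FOXA2* had 48 and 16 UMIs (26.3 and 41.4 CPM), against 1 UMI in all PE/ST cells and none in MES or EC cells, which makes it at least 294-fold higher than in MES (against a floor of 3 counts over the class). *ONECUT1*, a factor of hepatoblasts and bile duct precursors, stood at 66.3 and 111 CPM and was 7.07 ± 0.47 higher than in EC (edgeR adjusted p = 7.34e-06). *CEBPA*, which acts in hepatocyte metabolism, stood at 47.7 and 49.2 CPM and was 5.49 ± 0.46 higher than in PE/ST. These factors were thus at or near 0 in the neighbouring classes and present in the AFP-positive cells of both organoids.

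Other factors were also present in a neighbouring class. *HHEX*, required for the liver bud and also made by early endothelium, stood at 49.3 and 101 CPM and was 3.36 ± 0.26 higher than in PE/ST, but its difference from EC was 0.20 ± 0.24 (edgeR adjusted p = 0.551). That comparison was not settled: the log2 ratio to EC with 2 CPM added was -0.31 in organoid 32.7 and 0.94 in organoid 33.10, and *HHEX* was called higher than in EC with a wider cell filter of 50 to 11000 genes and under 30% mitochondrial counts (0.68, adjusted p = 0.00788) and in AFP-positive cells without any *CDH5*, *PTPRC* or *MYH6* UMI (0.67, adjusted p = 0.0122). *NR5A2*, a nuclear receptor of liver and pancreas, stood at 76.8 and 77.6 CPM, 3.60 ± 0.36 higher than in PE/ST. In EC it reached 166 and 169 CPM, and the difference of -1.12 ± 0.32 (edgeR adjusted p = 0.0218) did not pass the test under 7 alternatives. Among them were matching barcodes counted once (-0.93, adjusted p = 0.0614) and cells with at least 100 *AFP* UMIs (-0.55, adjusted p = 0.255). Leaving out the AFP-positive cells of organoid 32.7 or 33.10 was also among them, with a fold change about as large (-1.19 and -1.07). *GATA4*, which acts in heart, endoderm and septum transversum, stood at 135 and 235 CPM, lower than the 446 and 489 CPM of PE/ST cells (-1.30 ± 0.20, edgeR adjusted p = 0.00203). *PROX1*, needed for hepatoblast migration, was higher than in all 3 classes, by 3.45 ± 0.29, 2.31 ± 0.28 and 1.87 ± 0.27. In cells with 10 to 99 *AFP* UMIs its calls over MES (1.87, adjusted p = 0.102) and EC (1.44, adjusted p = 0.0848) were lost. *SOX17*, a factor of definitive endoderm and of arterial endothelium, had 33 UMIs in organoid 32.7 and 1 in organoid 33.10, and was lower than in EC (-3.34 ± 0.39). It was higher than in PE/ST with both organoids (1.77 ± 0.48, edgeR adjusted p = 0.0341), but -0.84 without the AFP-positive cells of organoid 32.7. Without the AFP-positive cells of organoid 32.7 the list gave 13 higher and 1 lower than PE/ST, 12 higher and none lower than MES, and 13 higher and 1 lower than EC. With matching barcodes counted once, 16 were higher and 2 lower than in PE/ST, 15 and none than in MES, and 15 and 1 than in EC. *SOX17* was then no longer called over PE/ST (1.40, edgeR adjusted p = 0.129), while *TBX3* was higher and *GATA6* lower there.

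**Figure D3:**
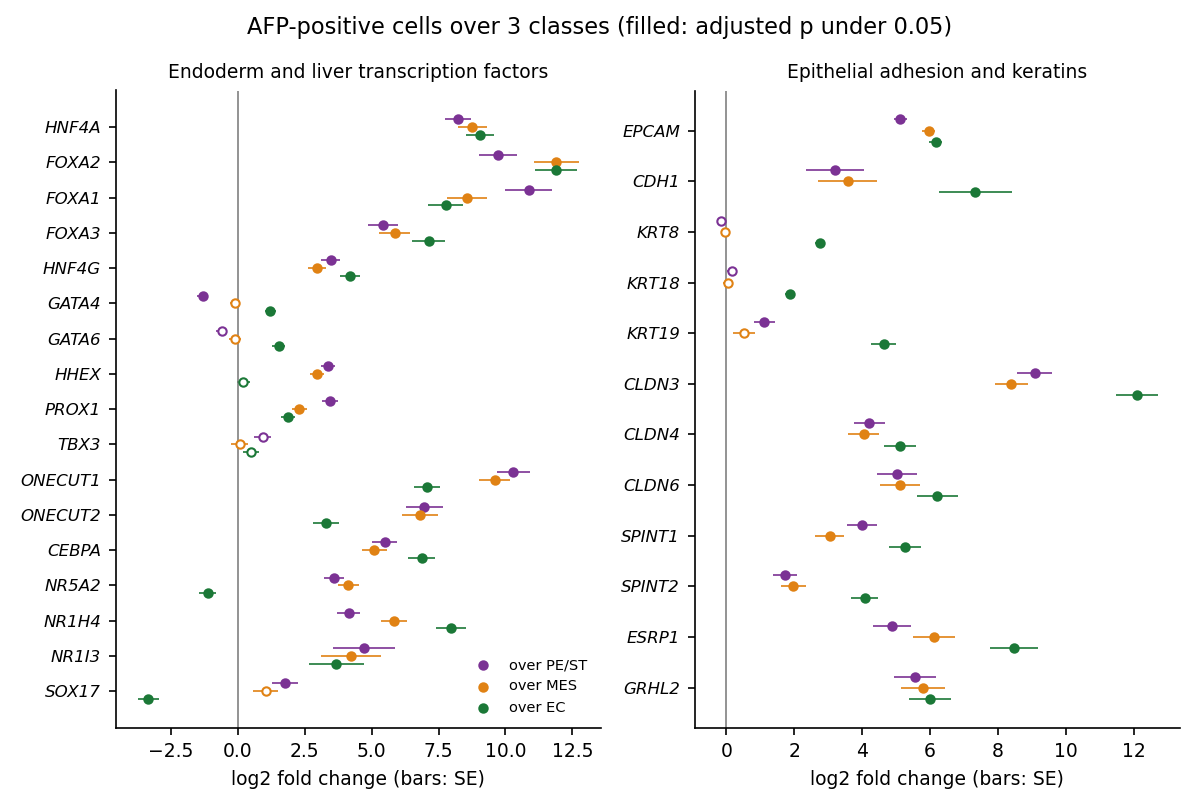
Log2 fold change (x axis, bars are 1 SE) of transcription factors of the list (left) and epithelial genes (right) in AFP-positive cells over PE/ST (purple), MES (orange) and EC (green), n = 2 organoids, with filled points where the edgeR adjusted p was under 0.05. *TBX3* has no filled point on the left, *KRT8* and *KRT18* lie near 0 over PE/ST and MES on the right, whereas *HNF4A* and *CLDN3* lie above 8 in all 3 comparisons. Points of *FOXA1*, *FOXA2* and *CLDN3* against a class with no UMI are fitted values without a meaning as a fold.

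Genes of secreted plasma proteins set the cells apart most. All 9 tested apolipoproteins and lipoprotein assembly genes were higher in each of the 3 comparisons, with a median log2 fold change of 7.99, 8.80 and 10.51. *APOA5* and *APOH* of this list did not pass the filter on low counts. *APOA1*, the main protein of high-density lipoprotein, stood at 6128 CPM (6015 to 6243) and 3726 CPM (3536 to 3924), and was 7.99 ± 0.40 higher than in PE/ST (edgeR adjusted p = 2.5e-06). *APOB*, the scaffold of the lipoproteins that carry triglyceride, stood at 679 and 699 CPM and was 11.45 ± 0.22 higher than in PE/ST, 10.83 ± 0.21 than in MES and 9.68 ± 0.19 than in EC. *MTTP*, which loads lipid onto that scaffold, stood at 147 and 119 CPM and was 7.82 ± 0.34 higher than in PE/ST. *APOE*, also made outside the liver, was 2.78 ± 0.29 higher than in PE/ST, where it stood at 396 and 294 CPM. *APOA4*, known from gut and yolk sac as well as liver, stood at 824 and 380.4 CPM and had no UMI in any PE/ST cell. The same 9 genes were counted as tested and higher when the AFP-positive cells of either organoid were left out, with matching barcodes counted once, and in cells with at least 100 *AFP* UMIs.

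Carriers, protease inhibitors and coagulation factors moved likewise, with 18 of 18 tested members higher in each comparison and a median log2 fold change of 10.00, 9.63 and 10.49. The list has 21 genes, of which *FETUB*, *KNG1* and *ITIH3* did not pass the filter on low counts. *SERPINA1*, the alpha-1 antitrypsin gene, stood at 8302 CPM (8171 to 8436) and 9717 CPM (9409 to 10033). Its log2 fold change over EC was 13.02 ± 1.04 (edgeR adjusted p = 1.72e-05). *TTR* stood at 2512 and 4329 CPM and was 11.82 ± 0.52 higher than in PE/ST. *FGB*, a chain of the clotting protein fibrinogen, stood at 2233 and 1641 CPM and was 12.80 ± 0.57 higher than in MES. *TF*, the plasma iron carrier transferrin, stood at 513 and 750.4 CPM and was 10.15 ± 0.33 higher than in PE/ST. *AMBP*, which yields a protease inhibitor and a small carrier protein, stood at 389.8 and 574 CPM and was 11.09 ± 0.37 higher than in PE/ST. Over all other cells of the organoids *SERPINA1* summed to 25.04 CPM in organoid 32.7 and 3.54 CPM in organoid 33.10. A *SERPINA1* UMI was found in 31.7% and 19.8% of the leukocyte gate, and in 91.0% and 100% of AFP-positive cells. *ALB*, the adult counterpart of *AFP*, was lower than these, at 186 CPM (167 to 207) and 33.6 CPM (17.9 to 57.5), and was 9.04 ± 0.91 higher than in PE/ST. An *ALB* UMI was found in 22.9% and 38.1% of AFP-positive cells. In organoid 32.7 the cells with at least 100 *AFP* UMIs held 308 *ALB* UMIs, of which 86 lay in 1 barcode, and the cells with 20 to 99 and with 10 to 19 held 27 and 5. The difference between organoids was not tested. *AFM* and *GC*, the other genes of the albumin cluster, had no UMI in AFP-positive cells.

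The promoters of *AHSG* and *APOA2* are shown because they hold a motif of HNF4 or of FOXA factors, whose genes were among the factors that were higher. They were chosen after the motif search. The 250 bases before the RefSeq start on build GRCh38.p14 are printed 5′ to 3′ on the gene's strand, at chr3:186612810-186613059 for *AHSG* (plus strand) and chr1:161223629-161223878 for *APOA2* (minus strand). Capitals mark GGACTTTG, the reverse complement of the HNF4 motif CAAAGTCC, in the first and GTAAACA, the reverse complement of the FOXA motif TGTTTAC, in the second.
AHSG: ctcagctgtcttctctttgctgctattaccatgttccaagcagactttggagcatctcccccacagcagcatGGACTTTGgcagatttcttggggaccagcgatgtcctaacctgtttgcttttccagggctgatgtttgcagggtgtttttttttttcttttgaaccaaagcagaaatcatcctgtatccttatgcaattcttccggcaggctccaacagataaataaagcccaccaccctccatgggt
APOA2: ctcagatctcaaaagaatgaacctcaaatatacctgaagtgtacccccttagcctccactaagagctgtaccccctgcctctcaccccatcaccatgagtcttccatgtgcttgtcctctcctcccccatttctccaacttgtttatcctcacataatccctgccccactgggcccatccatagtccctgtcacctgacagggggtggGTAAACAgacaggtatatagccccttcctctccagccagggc

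Promoters were available for 23 of 29 secreted genes (*AFP* and those higher in all 3 comparisons) and were searched on both strands over these 250 bases. The HNF4 motif was in 1 of the 23 (*AHSG*, 4.35%), in 1.02% of all 35116 promoters and in those of 1.26% of all 27305 genes. The FOXA motif was in 1 of the 23 (*APOA2*, 4.35%), in 2.98% of all promoters and in those of 3.66% of all genes. A match is a description of these letters and was not tested as a site, and no binding was measured.

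Functions of the mature hepatocyte were uneven. Of 11 tested genes 6 were higher than in PE/ST, 5 than in MES and 8 than in EC, and none was lower. Counting matching barcodes once gave 6, 4 and 7 higher. *ASGR1*, a subunit of the hepatocyte receptor that clears glycoproteins, stood at 141 and 119 CPM and was 4.38 ± 0.26 higher than in PE/ST (edgeR adjusted p = 8.39e-06). *ARG1*, the last enzyme of the urea cycle, stood at 54.8 and 51.8 CPM and was 5.72 ± 0.34 higher than in PE/ST. *CPS1*, the first enzyme of that cycle, stood at 14.3 and 7.76 CPM against 25.2 and 26.8 CPM in PE/ST (-0.86 ± 0.26, edgeR adjusted p = 0.0511). It was called lower than in PE/ST in cells with 10 to 99 *AFP* UMIs (-1.41, adjusted p = 0.0438) and without the filter on low counts (-0.89, adjusted p = 0.0229). *CYP3A4*, *CYP7A1* and *CYP2E1*, enzymes of drug, bile acid and ethanol metabolism, had no UMI in AFP-positive cells. *HAMP*, the gene of the iron hormone hepcidin, had 54 UMIs in organoid 32.7, all in cells with at least 100 *AFP* UMIs, and none in organoid 33.10, and its higher level over PE/ST (2.83 ± 0.64, edgeR adjusted p = 0.0154) rested on organoid 32.7 alone.

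Epithelial genes were higher, with 10, 9 and 12 of 12 tested members over PE/ST, MES and EC and none lower. *EPCAM*, an epithelial adhesion molecule of endoderm, stood at 245 CPM (223 to 269) and 347 CPM (291 to 411), and was 5.13 ± 0.18 higher than in PE/ST (edgeR adjusted p = 4.25e-07), 5.96 ± 0.19 than in MES and 6.17 ± 0.19 than in EC. *CDH1*, the E-cadherin gene, stood at 50.4 and 82.8 CPM and was 3.20 ± 0.86 higher than in PE/ST (edgeR adjusted p = 0.0319), a call lost without the AFP-positive cells of organoid 32.7 (3.53, adjusted p = 0.165) or of organoid 33.10 (2.95, adjusted p = 0.0969). The keratins *KRT8* and *KRT18* did not pass the test over PE/ST or MES, at -0.16 ± 0.13 and 0.16 ± 0.15 over PE/ST, since those classes held similar levels (*KRT8* 644 and 659 CPM in PE/ST against 553 and 509.8 CPM). Without the AFP-positive cells of organoid 32.7, 5 members of the list were higher than in PE/ST and 5 than in MES, and 12 than in EC. The counts were again 10, 9 and 12 with matching barcodes counted once.

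Genes of other gut regions were mostly absent or low. *SOX2*, *NKX2-1*, *PAX9*, *PAX1* and *PAX8*, which mark anterior foregut and its derivatives, had no UMI in any AFP-positive cell, which allows up to 3 UMIs over the class. Of the other anterior foregut genes, *TBX1* had 1 UMI in each organoid, and *ISL1*, which cardiac progenitors also express, stood at 8.77 and 5.18 CPM, near the 7.63 and 6.02 CPM of all other cells, and passed no test. *PTF1A*, *NKX6-1* and *NEUROG3* of the pancreas also had none, and *PDX1* had 3 and 1 UMIs. *SOX9*, a factor of ducts and of many mesenchymal cells, stood at 22.5 and 25.9 CPM, the duct keratin gene *KRT7* at 3.84 and 2.59 CPM, and *SPP1*, the osteopontin gene, at 32.4 and 12.9 CPM against 209 and 57.2 CPM in all other cells. None of these passed the test over PE/ST or MES, and *SOX9* (4.70 ± 0.42) and *KRT7* were higher than in EC. *CDX2*, a factor of the intestinal and caudal endoderm, was present, at 30.7 CPM (23.2 to 39.9) in organoid 32.7 and 7.76 CPM (1.60 to 22.7) in organoid 33.10, with 1 UMI in all PE/ST cells. It passed the test over each class with both organoids. When the AFP-positive cells of organoid 32.7 were left out these calls were lost, at fitted log2 fold changes of 7.62, 4.50 and 9.92 over PE/ST, MES and EC. *CUBN* and *AMN*, the 2 parts of the receptor that takes up vitamin B12 and proteins in gut, kidney and visceral endoderm, stood at 103 and 75.04 CPM and at 45.0 and 23.3 CPM. *CUBN* was 3.82 ± 0.30 and *AMN* 6.59 ± 0.48 higher than in PE/ST. The large endocytic receptor gene *LRP2*, which works with them, was 2.62 ± 0.64 higher than in PE/ST (edgeR adjusted p = 0.0216), a call lost without the AFP-positive cells of organoid 32.7 (2.45, adjusted p = 0.276) or of organoid 33.10 (2.71, adjusted p = 0.0508).

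Of 13 tested secreted factors 5 were higher and 1 lower than in PE/ST, 5 were higher and 3 lower than in MES, and 10 were higher and 1 lower than in EC. Counting matching barcodes once gave 6 higher and 2 lower, 5 and 4, and 9 and 1. *GPC3*, the fetal liver proteoglycan glypican 3, stood at 2158 and 2368 CPM and was 1.94 ± 0.16 higher than in PE/ST, 2.17 ± 0.16 than in MES and 6.24 ± 0.19 than in EC. *EPO*, the hormone that drives red cell formation and that the fetal liver makes, stood at 28.0 CPM (20.8 to 36.8) and 23.3 CPM (10.6 to 44.2). It had no UMI in any PE/ST cell and was 8.17 ± 0.96 higher than in EC (edgeR adjusted p = 0.000256). *DLK1*, a Notch-related ligand of hepatoblasts and stroma, stood at 1123 and 926 CPM, below the 4094 and 3012 CPM of MES cells (-1.81 ± 0.22). Its difference from PE/ST was -0.66 ± 0.21 (edgeR adjusted p = 0.0653), and it was called lower there with the organoid as a replicate block (-0.66, adjusted p = 0.0131) and under 7 other alternatives. *HGF*, the ligand that mesenchyme supplies to liver epithelium, was lower than in PE/ST (-3.27 ± 0.50), where it stood at 113 and 126 CPM, and this call was lost without the AFP-positive cells of organoid 32.7 (-4.48, adjusted p = 0.0522). *HGF* was not called over EC with all cells (1.64, edgeR adjusted p = 0.0686), but was higher there with the replicate block (1.82, adjusted p = 0.0282), with DESeq2 (1.64, adjusted p = 0.00798) and under 3 other alternatives. Its receptor gene *MET* stood at 8.77 and 7.76 CPM, 2.40 ± 0.32 higher than in PE/ST and lower than in EC (-1.35 ± 0.26). Both calls were lost without the AFP-positive cells of organoid 32.7 (2.15 and -1.59, adjusted p = 0.249 and 0.0924) and after thinning (2.70 and -1.08, adjusted p = 0.0927 and 0.258).

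Among 11 tested receptors 6 were higher and 3 lower than in PE/ST, 5 higher and 3 lower than in MES, and 6 higher and 4 lower than in EC, the same counts as with matching barcodes counted once. *FGFR4*, the fibroblast growth factor receptor of liver, stood at 43.3 and 49.2 CPM and was 7.39 ± 0.46 higher than in PE/ST. *ERBB3*, a receptor of the epidermal growth factor family, was 4.91 ± 0.40 higher than in PE/ST. *LIFR*, a cytokine receptor, was lower than in all 3 classes (-1.90 ± 0.20, -1.27 ± 0.20 and -1.53 ± 0.20). Its call over MES was lost after thinning (-1.06, edgeR adjusted p = 0.0731). Of 5 fetal RNA-binding and chromatin genes *LIN28B* and *HMGA2* were lower than in PE/ST (-0.99 ± 0.16 and -1.27 ± 0.24) and than in MES, and none was higher there. Without the AFP-positive cells of organoid 32.7 their calls over PE/ST were lost (-0.87 and -1.32, adjusted p = 0.0675 and 0.0934), and with matching barcodes counted once 3 genes were lower than in PE/ST and 2 than in MES. Of 9 mitosis and S phase genes 1 was lower than in PE/ST (*MKI67*, -1.45 ± 0.36) and 1 than in MES (*PCNA*, -0.63 ± 0.16), and 3 were higher and 2 lower than in EC. Over all genes, 7.49% were lower than in PE/ST, 6.35% lower than in MES, and 17.2% higher and 18.6% lower than in EC. The single calls among 9 genes lie near these shares and are no result about the list. The *MKI67* call was lost with matching barcodes counted once (-1.02, edgeR adjusted p = 0.0837) and after thinning (-1.35, adjusted p = 0.109). It was also lost in AFP-positive cells without any *CDH5*, *PTPRC* or *MYH6* UMI (-1.24, adjusted p = 0.0540) and without the AFP-positive cells of organoid 32.7 (-0.87). The *PCNA* call was lost with DESeq2 (-0.59, adjusted p = 0.0596), without the AFP-positive cells of organoid 32.7 (-0.48, adjusted p = 0.561) and under 4 other alternatives. The genes of the list lower than in PE/ST were *MCM2* and *MCM6* when matching barcodes were counted once. An *MKI67* UMI was found in 9.95% and 19.05% of AFP-positive cells, or in 3.61% and 5.26% after thinning, against 25.1% and 29.3% of the thinned leukocyte gate.

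Among the 8 genes with the largest fitted rise in each comparison that passed the test and reached 50 CPM in both organoids, 7 over PE/ST, 4 over MES and 6 over EC were members of the lists above. Over PE/ST these included *APOA4*, *FGB*, *FGA*, *SERPINA1*, *FGG*, *APOA2* and *AHSG*. *AHSG*, the fetuin A gene, stood at 870.2 and 621 CPM. Outside the lists, the pancreatic protease gene *PRSS1* stood at 93.2 and 378 CPM, with no UMI in MES or EC cells, which makes it at least 1451-fold and 2274-fold higher, and *ITIH1*, a carrier of the hyaluronan coat, stood at 70.7 and 93.2 CPM. The counts of *PRSS1* are uncertain, since it has close copies. Among the genes lower than in PE/ST were *NTS* and *TAC1*, which encode neuropeptides (-3.63 ± 0.55 and -3.46 ± 0.32; the *NTS* call was lost without the AFP-positive cells of organoid 32.7, -3.92, adjusted p = 0.0589), and among those lower than in EC was *ESM1*, an endothelial proteoglycan (-4.27 ± 0.32). *FABP1*, the liver fatty acid-binding protein, was chosen after its values had been seen, at 1269 and 1221 CPM and 11.31 ± 0.70 higher than in PE/ST.

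The markers of other cell types were tested in the same fit. Over all genes, 8.78% were higher and 7.49% lower than in PE/ST, 7.61% and 6.35% than in MES, and 17.2% and 18.6% than in EC. Single calls among the few markers of a list, such as those of blood, lie near these shares. Against PE/ST 2 of 5 cardiomyocyte markers were higher and none lower, against MES 4 and none, and against EC 5 and none. Of 4 mesenchymal markers 3 were lower than in PE/ST and MES, and 4 were higher than in EC. Of 4 endothelial markers 1 was higher than in PE/ST, 1 lower than in MES and 4 lower than in EC, and of 8 blood markers 1 was higher and 1 lower than in PE/ST, none higher and 1 lower than in MES, and 1 higher and 1 lower than in EC. Of the proepicardial and septum transversum markers 2 were tested, of which 1 was higher and 1 lower than in PE/ST, 1 and 1 than in MES, and 1 higher and none lower than in EC. With matching barcodes counted once, 1 cardiomyocyte marker was higher and 1 lower than in PE/ST, 4 were higher than in MES and 4 than in EC. The mesenchymal counts were then 3 lower, 4 lower and 3 higher, and the endothelial counts 1, 1 and 4 lower. In cells with at least 100 *AFP* UMIs no cardiomyocyte marker was higher than in PE/ST or MES and 4 were higher than in EC, and 2, 2 and 4 endothelial markers were lower. With matching barcodes counted once, 9 of 9 apolipoproteins and 17 of 17 tested carriers were higher in each comparison.

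The cells with at least 100 *AFP* UMIs were not uniform in their transcripts of secreted proteins. This description was made after the values had been seen and was not tested. In organoid 32.7, 20 of these 44 cells had no *APOA4* UMI, and their *SERPINA1* level ran from 8553 to 47887 CPM with a median of 21760 CPM. In the other 24 cells *SERPINA1* ran from 316 to 23563 CPM with a median of 2298 CPM. The ranges overlapped, while the medians of *TTR* went the opposite way, 703 CPM in cells without *APOA4* and 3880 CPM in cells with it. *EPO* UMIs were found in 15 of the 20 cells without *APOA4* and in 5 of the 24 with it, and *CDX2* UMIs in 2 of the 20 and in 13 of the 24. Markers of other cell types went with the same split, since *TNNT2* UMIs were found in 5 of the 20 and 13 of the 24, *COL3A1* UMIs in 6 and 12, and *PF4* UMIs in 3 and 9, and their part in it was not tested. Median depth in organoid 32.7 was 19151 and 18846.5 UMIs. With matching barcodes counted once, 16 cells of each kind had *SERPINA1* medians of 21760 and 2693 CPM, with *EPO* in 12 and 4 cells and *CDX2* in 2 and 9. In organoid 33.10, 5 cells were of each kind, with *SERPINA1* medians of 9178 and 6828 CPM and *TTR* medians of 959.8 and 10670 CPM, but their median depth differed, at 16002 and 25304 UMIs. Counted once, matching barcodes left 2 cells without *APOA4*, with a *SERPINA1* median of 8342 CPM, and the same 5 with it. Markers of other cell types did not go with the split in the same direction there, with *TNNT2* UMIs in 4 of the 5 cells without *APOA4* and 2 of the 5 with it, and *COL3A1* and *PF4* UMIs each in 3 and 2. Median *PF4* was 10101.5 CPM in the cells without *APOA4* and 0 in those with it, and median *TNNT2* was 625 and 0 CPM. The 2 cells left without *APOA4* held *PF4* at 10101.5 and 18747.7 CPM, and *TNNT2* at 625 and 1515 CPM. Their *SERPINA1* median thus comes from barcodes rich in platelet and cardiac transcripts.

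**Figure D4:**
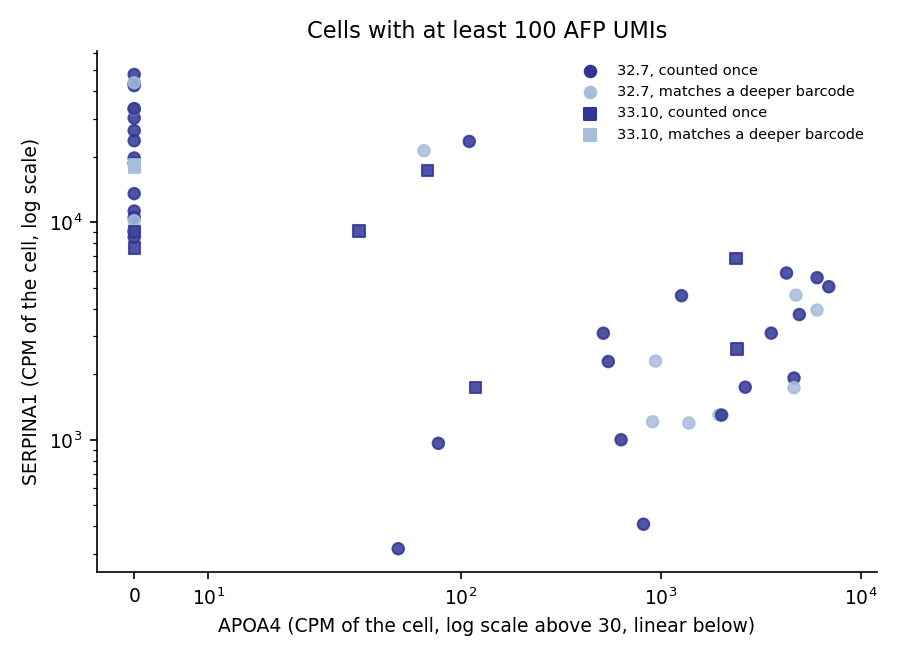
*APOA4* level (x axis, CPM of the cell, linear below 30 and log scale above) and *SERPINA1* level (y axis, CPM of the cell, log scale) of each cell with at least 100 *AFP* UMIs, as circles for organoid 32.7 and squares for organoid 33.10, with pale points for barcodes that match a deeper one. Cells without *APOA4* line up at the left between 7622 and 47887 CPM of *SERPINA1*, and cells with *APOA4* of organoid 32.7 reach down to 316 CPM.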

How the data were processed

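The authors processed the reads of each library with Cell Ranger 7.0.0 against GRCh38, counting introns as well as exons, and deposited raw UMI counts per gene and barcode, whole numbers without normalization. The study's removal of free RNA and its own cell filter are not part of these counts. Library totals were 191152562 UMIs in 16866 barcodes (32.7) and 233818881 in 19948 (33.10), so a gene at 1 CPM in AFP-positive cells rests on about 2 UMIs at most (class totals of 1823802 and 386438 UMIs). Per-sample columns without a match to a sample numbered 0.

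Cells were selected as stated in the report. Doublets were not removed and no doublet caller was run. Cells of the 4 comparison classes had at most 2 *AFP* UMIs and at most 1 *PTPRC* UMI, with the limits on *CDH5* and *MYH6* stated for AFP-positive cells where the class is not defined by that gene. PE/ST cells had at least 3 UMIs of *WT1* and *TBX18* together, MES cells at least 5 of *PRRX1* and *LUM* and at most 1 of *WT1* and *TBX18*, EC at least 3 each of *CDH5* and *PECAM1*, and cardiomyocytes (CM) at least 10 of *MYH6* and at most 2 of *WT1* and *TBX18*. The leukocyte gate had at least 3 UMIs of *PTPRC*. The 9 genes read by gates (*AFP*, *CDH5*, *PTPRC*, *MYH6*, *PECAM1*, *WT1*, *TBX18*, *PRRX1*, *LUM*) received no call. UMIs were summed per class and organoid and tested with edgeR 4.0.16 (R 4.3.3; TMM, filterByExpr, class as the only term, 5 classes in 1 fit, 5 residual degrees of freedom). Classes of 1 organoid share its library, which is where the pairing by replicate number comes from. SE is the log2 fold change divided by the square root of F. Tested on simulated counts, the fit recovered 24%, 23.5% and 24% of genes changed by a log2 fold of 1 and 64%, 62.5% and 64% of those changed by 2, over PE/ST, MES and EC. False calls made up 2.04%, 2.08% and 2.04% of calls at a log2 fold of 1, and 4.48%, 2.34% and 6.57% at 2. The simulated AFP-positive sums varied like the other classes, whereas the real ones were less alike between organoids. Named genes were the markers, list members and, per comparison, the 8 largest changes each way that passed the test at 50 CPM in the higher class, without dotted or LINC symbols. The members and lists were chosen with earlier results of these data known. Promoters are from RefSeq. Some genes of the lists and of the named-gene rule enter the counts but are not reported here by name. The HFO libraries and other assays were not analysed here.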

Additional observations from a re-analysis of the deposited data

How the results depend on the processing

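Main totals of genes called (higher and lower) were 3408 over PE/ST, 2924 over MES and 7504 over EC. They were 1149, 774 and 4641 in AFP-positive cells with 10 to 99 *AFP* UMIs, and 1015, 952 and 3233 after thinning every cell to 3000 UMIs, which lowers the counts tested. Without the AFP-positive sum of organoid 32.7 they were 1260, 1257 and 3523, and without that of organoid 33.10 3132, 2492 and 6871, where the lone sum is assumed to vary like the other classes. With only the classes compared in the fit they were 2182 over PE/ST and 1381 over MES. The cause of these differences was not tested. With the organoid as a replicate block, a paired fit, they were 4282, 3864 and 8283, and DESeq2 gave 3698, 3195 and 7340. With matching barcodes counted once they were 3197, 2958 and 6836. The share of AFP-positive cells ran from 0.110% to 1.29% when either organoid was left out.

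Among the genes named with a fold change by the rule, and counting only differences that passed the test with all cells or under the alternative, *SOX17* over PE/ST and *HAMP* changed direction under an alternative run. *SOX17* was 1.77 higher on the log2 scale with all cells, -0.41 without any UMI of *CDH5*, *PTPRC* or *MYH6* in the AFP-positive cells, and -0.84 without the AFP-positive sum of organoid 32.7 (2.10 without that of organoid 33.10). Its log2 ratio of CPM with 2 CPM added was -0.38 in organoid 33.10. *HAMP* gave -8.50, -6.99 and -4.56 over PE/ST, MES and EC in cells with 10 to 99 *AFP* UMIs and -8.62, -7.15 and -4.70 without the sum of organoid 32.7, where it had no UMI and the fitted values are no fold. Without the sum of organoid 33.10 it gave 3.37, 4.84 and 7.29. It had log2 ratios with 2 CPM added of -1.62, -0.70 and -0.16 in organoid 33.10. Of the results for named genes, *SOX17* over PE/ST and *HAMP* over all 3 classes lost their call without the sum of organoid 32.7. These also lost their call without that sum: *CDX2* and *MET* over all 3 classes, *CDH1*, *LRP2*, *HGF*, *LIN28B*, *NTS* and *ESM1* over PE/ST and MES, *HMGA2* over PE/ST and EC, *PCNA* over MES and EC, *EPO* over MES, *MKI67* over PE/ST and *NR5A2* over EC. Without that of organoid 33.10, 5 did: *CDH1* over PE/ST and MES, *LRP2* over PE/ST, *HMGA2* and *NR5A2* over EC. In cells with 10 to 99 *AFP* UMIs *HAMP* over all 3 classes and 17 further results lost their call. The 17 were *PROX1* over MES and EC, *CDH1*, *LRP2* and *ESM1* over PE/ST and MES, *HMGA2* over PE/ST and EC, *PCNA* over MES and EC, *EPO* and *HGF* over MES, *MET* and *MKI67* over PE/ST and *CUBN* over EC. *CDX2* lost its calls without the sum of organoid 32.7 at fitted log2 fold changes of 7.62, 4.50 and 9.92 over PE/ST, MES and EC. Its call over MES was also lost with DESeq2 (6.17, DESeq2 adjusted p = 0.144). The alternatives by *AFP* count, by matching barcodes and without 1 AFP-positive sum were chosen after seeing the data. The 21 cells of organoid 33.10 limit every value of that organoid.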
